A study of Homo sapiens with 8 samples.

Results

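The 9 globin genes HBZ, HBA1, HBA2, HBQ1, HBE1, HBG1, HBG2, HBB and HBD were followed in RNA sequencing of K562 cells, among 23847 genes in all. Members were taken by gene name in the deposited transcript lists and followed by transcript accession through all 8 libraries. Assembled spliced transcripts that shared an intron with a globin gene were added to it. K562 is a human erythroleukaemia line, and the cells carried a doxycycline-inducible SF3B1 transgene in every group. SF3B1 belongs to the U2 snRNP, the part of the spliceosome that recognises the branch point, and the study asked how its K700E form changes expression and splicing. K700E_induced cells carried the SF3B1-K700E transgene and received 1 ug/ml doxycycline for 48 h, and K700E_uninduced cells carried the same transgene without doxycycline. WT_induced cells carried the SF3B1-WT transgene with the same doxycycline treatment, and WT_uninduced cells carried it without doxycycline. Each group had 2 libraries, numbered replicate 1 and replicate 2 in the labels, and the labels do not say whether a line is a single clone or a pool. Nothing says that the replicates came from separate cultures, so p-values measure the spread between these libraries, which may be technical.

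Haemoglobin joins alpha-like chains to beta-like chains around heme. The alpha-like genes lie together on chromosome 16 and the beta-like genes on chromosome 11, each in roughly the order in which they are used during development. HBZ (zeta) and HBE1 (epsilon) are the embryonic genes, HBG1 and HBG2 (gamma) the fetal ones, and HBB (beta) and HBD (delta) the adult beta-like ones, while HBA1 and HBA2 (alpha) serve fetal and adult life. K562 cells are known for making embryonic and fetal haemoglobins with little or no adult beta chain.

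Several members are near-copies of each other, which bears on how their reads could be divided. The coding sequences of HBA1 and HBA2 in GENCODE 29 were identical over 429 bases. Those of HBG1 and HBG2 differed at 2 of 444 positions, C227T and C410G, counted from 1 at the A of the start codon and written from HBG1 to HBG2. Of the 395 stretches of 50 bases in the HBG1 coding sequence, 310 (78.5%) also stood in HBG2. HBE1 was 83.6% identical to HBG1, and HBZ was 69.6% identical to HBA1, with 1 and 0 shared stretches of that length. The next lines show 60 coding bases (positions 379 to 438) of the gamma genes and HBE1, since they hold the second difference between the gamma copies, with capitals where a base differs from HBG1.
HBG1: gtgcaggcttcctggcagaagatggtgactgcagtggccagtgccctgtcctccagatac
HBG2: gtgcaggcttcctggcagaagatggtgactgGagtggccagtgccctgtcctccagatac
HBE1: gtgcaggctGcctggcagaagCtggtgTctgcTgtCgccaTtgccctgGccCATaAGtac

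The corresponding stretch for the alpha-like genes (coding positions 196 to 255) shows the identity of the alpha copies and their distance from the embryonic gene, with capitals where a base differs from HBA1.
HBA1: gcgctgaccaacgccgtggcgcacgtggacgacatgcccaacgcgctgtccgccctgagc
HBA2: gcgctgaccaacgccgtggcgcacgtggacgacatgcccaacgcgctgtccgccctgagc
HBZ: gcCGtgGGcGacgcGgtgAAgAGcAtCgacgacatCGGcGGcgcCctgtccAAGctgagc

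HBG2 differed from HBG1 at 1 of these 60 bases and HBE1 at 12, while HBZ differed from HBA1 at 21. Levels of a single alpha or gamma copy are therefore uncertain, and the sum of each pair is given beside them. Levels of HBZ and HBE1 do not share this limit to the same degree.

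Values are FPKM, fragments scaled by transcript length and by the library's mapped fragments, as the authors deposited them, so genes can be compared per length. Coverage per FPKM, the only sign of depth used here, ranged from 3.29 to 4.77 between libraries. Among 49 values of globin transcripts above 100 FPKM, Cufflinks' own interval had a half-width of 0.956% to 5.08% of the level (median 1.47%), which covers estimation inside 1 library and no spread between libraries. The libraries carried erythroid markers (summed FPKM 454 to 810 over 10 genes). Of the markers of other blood lineages, MPO, PF4, PPBP, MS4A1 and CD2 were listed at 0 in all 8. Others of the same lists, SPI1, CD68, CD33, LYZ, ITGA2B and CD3D, were above 0 in all 8. The myeloid list summed to 39.5 to 143 FPKM, the megakaryocytic to 9.91 to 41.9 and the lymphoid to 8.40 to 63.4. SF3B1 was at 29.0 and 39.5 FPKM in K700E_induced, 34.6 and 30.4 in K700E_uninduced, 36.6 and 27.3 in WT_induced and 37.7 and 31.7 in WT_uninduced. These levels overlapped, so they do not check which libraries were induced, and they do not separate the transgene from the cells' own gene. File names give lane 1 for every replicate 1 library and lane 2 for every replicate 2 library, so number and lane cannot be told apart.

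Embryonic, fetal and alpha globin transcripts were all abundant in these cells, and the adult beta-like transcripts were close to 0. HBG2 had the highest mean over the 8 libraries, at 2950 ± 1127 FPKM (SD, n = 8). It was followed by HBA1 (mean 2399 ± 857 FPKM), HBG1 (mean 2030 ± 744 FPKM), HBZ (mean 1757 ± 660 FPKM), HBA2 (mean 1537 ± 474 FPKM) and HBE1 (mean 949 ± 664 FPKM). HBQ1 (theta), whose chain has no settled role, averaged 47.1 ± 44.8 FPKM, HBD 6.16 ± 6.42 and HBB 0.114 ± 0.291. Among the first 5, no neighbours in this order parted by more than the SD of their difference. HBG2 exceeded HBA1 in 5 of 8 libraries (mean difference 552 FPKM, SD of the difference 1167), HBA1 exceeded HBG1 in 4, HBG1 exceeded HBZ in 6 and HBZ exceeded HBA2 in 5. HBA2 exceeded HBE1 in 7 libraries, HBE1 exceeded HBQ1 in all 8, and HBQ1 exceeded HBD in all 8. HBM (mu), an alpha-like gene that is no member here, was listed at 0 in all 8 libraries.

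HBZ, the embryonic zeta gene (hg19 chr16:202854-204504, plus strand, 3 exons), stood at 1405 and 2373 FPKM in K700E_induced replicates 1 and 2 and at 1505 and 2392 in K700E_uninduced. It stood at 2149 and 881 FPKM in WT_induced replicates 1 and 2 and at 2431 and 918 in WT_uninduced. The 2 libraries of the WT line numbered 1 were thus high and those numbered 2 low, and in the K700E line it was the other way round.

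HBE1, the embryonic epsilon gene (chr11:5289580-5291373, minus strand, 3 exons), followed the same arrangement. Its level was 638 and 1412 FPKM in K700E_induced replicates 1 and 2, 601 and 2303 in K700E_uninduced, 928 and 351 in WT_induced, and 1077 and 279 in WT_uninduced. Of the abundant members it varied most, with the highest library 8.24 times the lowest. HBZ varied 2.76-fold.

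HBA1 (chr16:226679-227520) had 2253 and 3988 FPKM in K700E_induced replicates 1 and 2 and 2119 and 3215 in K700E_uninduced. Its values were 2404 and 1455 FPKM in WT_induced and 2334 and 1421 in WT_uninduced. The alpha copies together (HBA1 + HBA2) came to 3528 and 6200 FPKM in K700E_induced, 3628 and 5232 in K700E_uninduced, 4077 and 2347 in WT_induced, and 4089 and 2381 in WT_uninduced. They showed the arrangement of HBZ and HBE1, with replicate 2 high in the K700E line and low in the WT line. HBA2 (chr16:222846-223709) ranged from 893 to 2213 FPKM, and HBA1 exceeded it 1.33-fold to 1.80-fold in every library.

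HBG2 (chr11:5274421-5276011, minus strand) was arranged differently. It reached 2813 and 3320 FPKM in K700E_induced replicates 1 and 2, 3922 and 4869 in K700E_uninduced, 1534 and 2739 in WT_induced, and 1518 and 2888 in WT_uninduced. Replicate 2 was the higher library in all 4 groups, and the K700E library exceeded the WT library of the same number and treatment each time.

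HBG1 (chr11:5269502-5271087) gave 1765 and 2586 FPKM in K700E_induced, 2392 and 3271 in K700E_uninduced, 1135 and 1933 in WT_induced, and 1030 and 2126 in WT_uninduced. The gamma copies together came to 4578 and 5906 FPKM in K700E_induced, 6314 and 8140 in K700E_uninduced, 2669 and 4672 in WT_induced, and 2548 and 5014 in WT_uninduced. HBG2 exceeded HBG1 1.28-fold to 1.64-fold in every library.

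**Figure D1:**
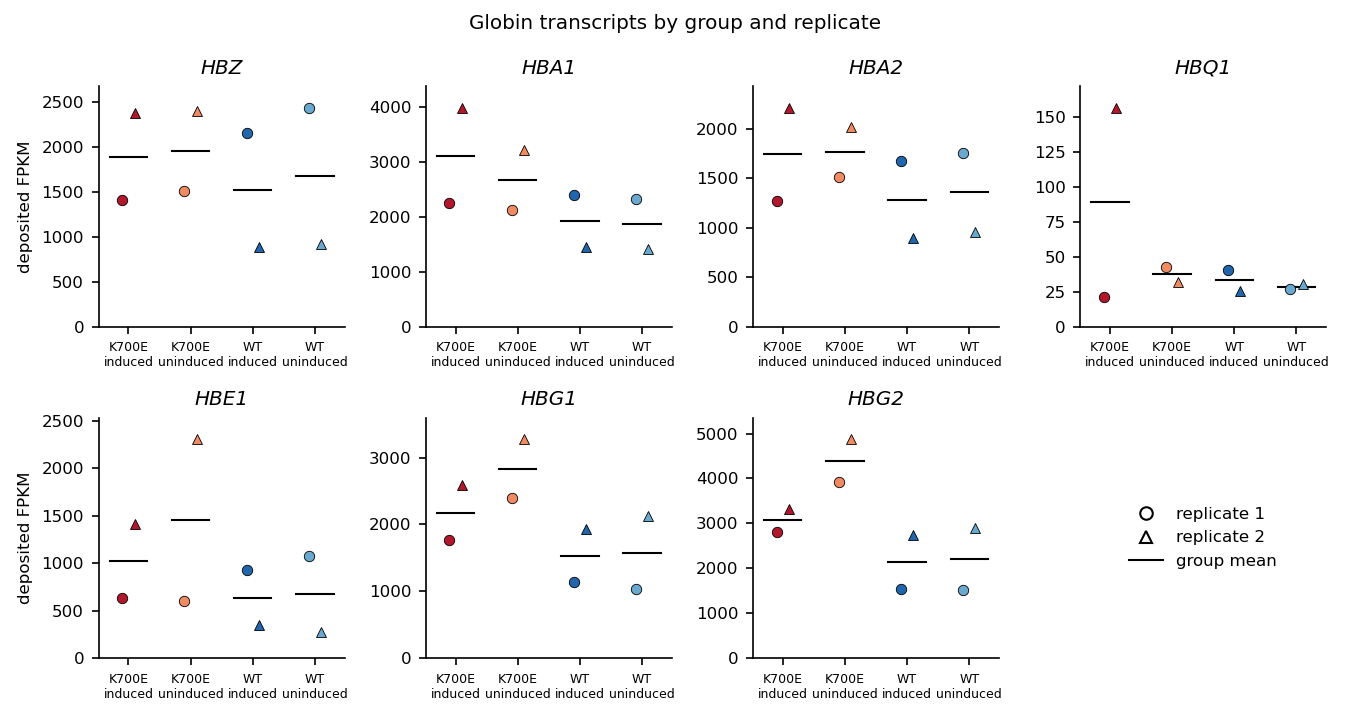
Deposited FPKM (y axis, linear from 0) of 7 globin genes in the 4 groups (x axis); circles are replicate 1, triangles replicate 2 and bars the mean of 2 libraries. In the WT line the replicate 1 libraries are the higher ones for HBZ, HBA1, HBA2 and HBE1 and the lower ones for HBG1 and HBG2, and HBQ1 has a single high value, 156.5 FPKM.

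HBQ1 (chr16:230333-231178) stood apart through 1 library. It was at 21.4 and 156.5 FPKM in K700E_induced replicates 1 and 2, 42.7 and 32.4 in K700E_uninduced, 40.5 and 25.8 in WT_induced, and 27.3 and 30.3 in WT_uninduced. All libraries but K700E_induced replicate 2 lay between 21.4 and 42.7 FPKM. The log2 fold change of HBQ1 on K700E induction was 0.64 (SE 0.80), and -0.78 without that library. AHSP, which encodes the chaperone of free alpha chains, was at 6.69 FPKM in that library and listed at 0 in the other 7. Its part in the HBQ1 value was not tested.

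The adult genes were barely seen. HBB (chr11:5246696-5248301) was listed at 0 in 6 libraries, at 0.830 FPKM in K700E_induced replicate 2 and at 0.0830 in WT_uninduced replicate 1, and did not reach the mean of 1 FPKM needed for testing. HBD (chr11:5254059-5255858) was at 15.7 and 3.91 FPKM in K700E_induced, listed at 0 in both K700E_uninduced libraries, at 6.48 and 0 in WT_induced, and at 8.44 and 14.7 in WT_uninduced. Together they made up at most 0.301% of beta-like FPKM. In K700E_uninduced replicate 1 the deposited list treated HBD, HBG1 and HBG2 as parts of 1 locus, and there HBD was listed at 0. Its coding sequence was 92.8% identical to that of HBB and 76.1% to that of HBG1. An exact 0 in such lists can be a failed estimate, so the HBD values are descriptions and no fold is given for them.

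On induction of K700E no globin gene passed the test, and the gamma genes had lower values in both same-number pairs. HBG2 averaged 3066 ± 358 FPKM in K700E_induced and 4396 ± 670 in K700E_uninduced (SD, n = 2 each), and its groups did not overlap. Its log2 fold change was -0.51 (SE 0.38), with an adjusted p of 1 in limma, the moderated linear model fitted across all genes. HBG1 averaged 2176 ± 581 FPKM in K700E_induced and 2832 ± 622 in K700E_uninduced (log2 fold change -0.39, SE 0.42, limma adjusted p = 1). Among all 11465 genes tested, 17.7% were lower in K700E_induced without overlap and 16% higher without overlap, so such a separation of 2 against 2 libraries was common. HBA1 had a log2 fold change of 0.20 (SE 0.42), HBA2 of -0.05 (SE 0.44), HBZ of -0.05 (SE 0.58) and HBE1 of -0.31 (SE 0.86). Each of these 4 changed sign when single K700E libraries were left out (HBZ ran from -0.43 to 0.33 and HBE1 from -1.31 to 0.70), while HBG1 and HBG2 stayed below 0. Of 8 members tested, 0 passed the adjusted threshold of 0.05, against 0.0174% of all genes. At an unadjusted p under 0.05 there was 1, HBD, against 4.65% of all genes. HBD was also higher in K700E_induced without overlap, as were 16% of all genes. Leaving HBD aside, 2 members lay above 0 (49.5% of all genes did) and 5 below (50.5%). The median was -0.05, against -0.01 over all genes.

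In the WT line the induced and uninduced means lay close together, well inside the spread between replicates. HBG2 averaged 2137 ± 852 FPKM in WT_induced and 2203 ± 969 in WT_uninduced (log2 fold change -0.03, SE 0.38), and HBZ averaged 1515 ± 897 FPKM in WT_induced and 1674 ± 1070 in WT_uninduced (log2 fold change -0.12, SE 0.58). HBA1 had a log2 fold change of 0.04 (SE 0.42). None of the 8 passed the adjusted limma threshold (0.0262% of all genes did) and 0 had an unadjusted p under 0.05 (4.36%). Leaving HBD aside, 3 members lay above 0 (50.3% of all genes) and 4 below (48.7%). HBD was lower in WT_induced without overlap, as were 14% of all genes.

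For HBA1, HBA2, HBZ, HBE1 and HBG1, every induced to uninduced ratio between libraries of the same line and number was smaller in size than every ratio between the 2 replicates of a group, as in 1.11% of all genes. The rule for this count was set after the values were seen. Over 8744 genes, libraries of the same line and number were hardly more alike than others, with a mean r of 0.848, against 0.842 within a group and 0.837 for the other pairs. For HBZ the log2 ratio of induced to uninduced was -0.06 and -0.04 in replicates 1 and 2 of the K700E line and -0.18 and -0.06 in the WT line. For HBA1 it was 0.13 and 0.28 in the K700E line and 0.04 and 0.03 in the WT line. HBE1 varied more, at 0.13 and -0.74 in the K700E line and -0.22 and 0.33 in the WT line. Its 0.13 includes an assembled form at 185 FPKM in K700E_induced replicate 1. The reference form alone was at 453 FPKM there, below the 601 of K700E_uninduced replicate 1. HBG2 did not share the rule, at -0.44 and -0.59 in the K700E line, where its replicates differed by 0.24 in K700E_induced and 0.38 in K700E_uninduced. In the WT line it was at 0.01 and -0.08. HBQ1, at -0.94 and 2.22 in the K700E line, and HBD did not share it either. The difference between the 2 lines in their response to induction, an interaction term, was -0.48 for HBG2 (SE 0.54) and -0.38 for HBG1 (SE 0.59), each with a limma adjusted p of 0.999. No member passed the adjusted threshold for the interaction (0.0262% of all genes did), and HBD alone had an unadjusted p under 0.05 (4.3% of all genes did).

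**Figure D2:**
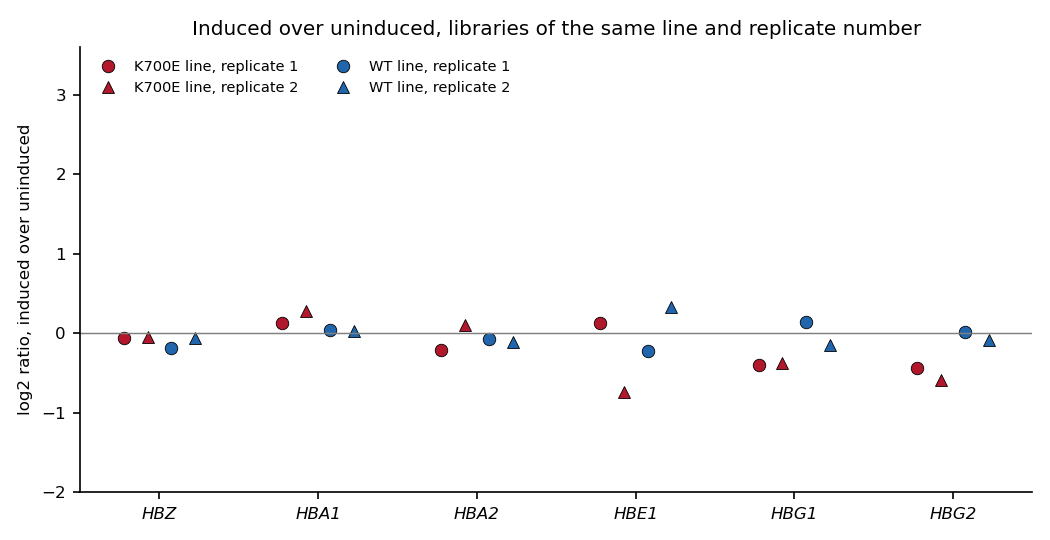
Log2 ratio of induced to uninduced level (y axis) for 6 globin genes (x axis), between libraries of the same line and replicate number; red is the K700E line, blue the WT line, circles replicate 1 and triangles replicate 2. HBG1 and HBG2 lie below 0 in both replicates of the K700E line, between -0.37 and -0.59, and the WT line lies within 0.14 of 0 for both.

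In deposited FPKM summed over all 9 genes, every K700E library lay above every WT library. The closest were 10187 FPKM in K700E_induced replicate 1 and 10181 in WT_uninduced replicate 1. Their scaling factors were 1 and 0.99, so this pair changed order on scaling and the lines then overlapped. No single member passed the adjusted threshold between the lines. HBG2 averaged 3066 ± 358 FPKM in K700E_induced and 2137 ± 852 in WT_induced (log2 fold change 0.57, SE 0.38, limma adjusted p = 0.951). Without doxycycline it averaged 4396 ± 670 FPKM in K700E_uninduced and 2203 ± 969 in WT_uninduced (log2 fold change 1.05, SE 0.38, limma adjusted p = 0.966). Over both treatments, 4 libraries against 4, the log2 fold change of K700E over WT was 0.81 for HBG2 (SE 0.27, unadjusted p = 0.0171, adjusted p = 0.780 in limma). It was 0.71 for HBG1 (SE 0.30, unadjusted p = 0.0423, adjusted p = 0.848), 0.91 for HBE1 (SE 0.61), 0.59 for HBA1 (SE 0.30), 0.43 for HBA2 (SE 0.31) and 0.37 for HBZ (SE 0.41). Without WT_uninduced replicate 2 the HBZ value was 0.012, and without K700E_uninduced replicate 2 the HBE1 value was 0.41. Without WT_induced replicate 1 the HBG2 value between the induced groups was 0.16. No member passed the adjusted threshold over both treatments, nor between the induced or the uninduced groups, against 0.0436%, 0.0349% and 0.0174% of all genes. Unadjusted p-values under 0.05 numbered 2 over both treatments (5.81% of all genes), 0 between the induced groups (5.25%) and 2, HBG2 and HBD, between the uninduced groups (4.68%). The induced and uninduced libraries of a line are not separate lines, so the 4 against 4 fit still compares 1 line with 1 line.

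All 7 members other than HBD lay above 0 in each of these comparisons. The share of all genes above 0 was 51.4% over both treatments, 50.5% between the induced groups and 51.4% between the uninduced groups, and the members' medians were 0.59, 0.57 and 0.51. HBG2 was higher without overlap in K700E_induced than in WT_induced (16.1% of all genes were), and HBG1, HBG2 and HBQ1 were in K700E_uninduced compared with WT_uninduced (16.8%). HBD was lower there without overlap (15.7%). Over both treatments no member was higher without overlap, and 1.79% of all genes were.

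The order of the lines differed by replicate number for 4 members and held for the gamma genes. Ratios between 2 libraries were taken after scaling and with 0.5 FPKM added, and libraries were matched by number alone, as a description. For HBZ, K700E_induced stood at 0.647 times WT_induced in replicate 1 and at 2.70 times in replicate 2, and K700E_uninduced at 0.595 and 2.66 times WT_uninduced. HBE1 showed the widest turn. Its induced pairs gave 0.681 times in replicate 1 and 4.03 times in replicate 2, and its uninduced pairs 0.536 and 8.42 times. HBA1 gave 0.927 and 0.873 times in the replicate 1 pairs and 2.75 and 2.31 times in the replicate 2 pairs, and HBA2 turned likewise. These 4 of 8 tested members were below 1 in both replicate 1 pairs and above 1 in both replicate 2 pairs, as were 6.96% of all genes. The same 4 had replicate 2 above replicate 1 in both K700E groups and below it in both WT groups (6.85% of all genes). HBG2 was instead higher in the K700E line in every pair, 1.81 and 2.48 times in the replicate 1 pairs and 1.22 and 1.72 times in the replicate 2 pairs. HBG1 was as well, between 1.34 and 2.23 times, and 6.52% of all genes shared this order. In both gamma genes replicate 2 exceeded replicate 1 in all 4 groups (6.09% of all genes). The orders counted here were those seen in the members themselves, so the shares are descriptions and no test. HBA1 and HBA2, with identical coding sequences, and the near-identical gamma copies are not separate cases. Whether this arrangement comes from the cultures, the lanes or the naming of the libraries was not tested.

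**Figure D3:**
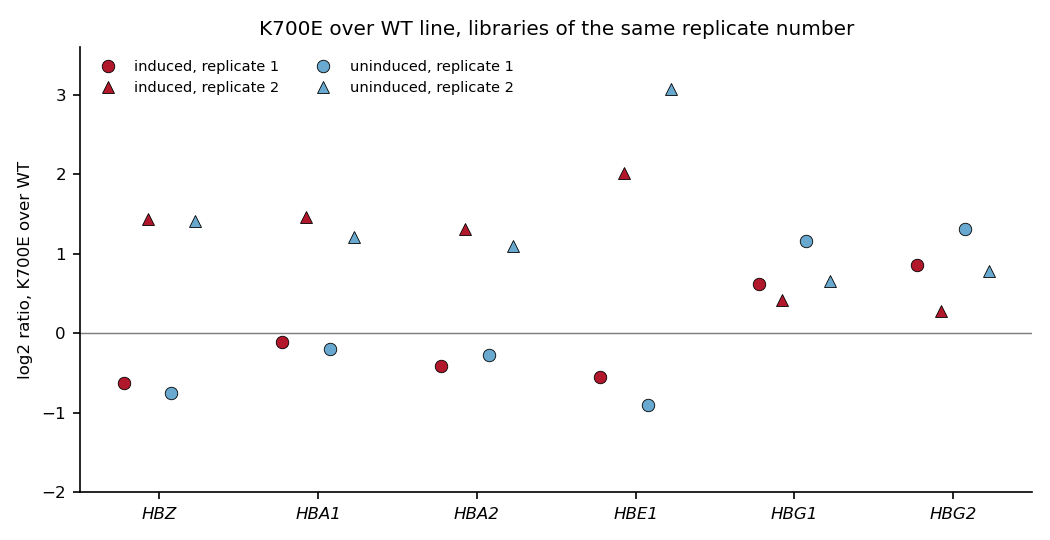
Log2 ratio of K700E to WT level (y axis) for 6 globin genes (x axis), between libraries of the same replicate number; red is induced, light blue uninduced, circles replicate 1 and triangles replicate 2. HBZ, HBA1, HBA2 and HBE1 lie below 0 in replicate 1 and above 0 in replicate 2, up to 3.07 for HBE1, and HBG1 and HBG2 lie above 0 throughout.

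HBZ, HBA1, HBA2 and HBE1 thus formed 1 set that varied together across the 8 libraries, and HBG1 and HBG2 formed another. As a description over libraries that share lanes and lines, Pearson's r of log2(FPKM + 0.5) was 0.97 between HBA2 and HBZ, 0.94 between HBZ and HBE1 and 0.92 between HBA1 and HBE1, genes of different chromosomes in the last 2 pairs. It was 0.98 between HBG1 and HBG2, whose reads may be divided by estimation. Between the sets it was -0.11 for HBZ with HBG1 and 0.16 for HBE1 with HBG2, although HBE1 and the gamma genes are neighbours. HBQ1 followed neither set closely, at 0.66 with HBA1, 0.40 with HBE1 and 0.32 with HBG1. HBD was at -0.04 with HBA1 and -0.58 with HBG2, and HBB was not tested.

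The balance of alpha-like to beta-like transcript differed more between the numbered libraries of the WT line than between groups. The ratio of summed alpha-like FPKM (HBZ, HBA1, HBA2, HBQ1) to summed beta-like FPKM (HBE1, HBG1, HBG2, HBB, HBD) was 0.947 and 1.19 in K700E_induced replicates 1 and 2 and 0.749 and 0.733 in K700E_uninduced. It was 1.74 and 0.648 in WT_induced and 1.80 and 0.627 in WT_uninduced. K700E_induced averaged 1.07 ± 0.173 and K700E_uninduced 0.741 ± 0.0109 without overlap (SD, n = 2 each). WT_induced averaged 1.19 ± 0.772 and WT_uninduced 1.21 ± 0.831, a range that holds both K700E groups. The summed level behind these ratios was 10187 and 16052 FPKM over all 9 genes in K700E_induced, 12091 and 18100 in K700E_uninduced, 9870 and 8277 in WT_induced, and 10181 and 8637 in WT_uninduced.

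Within the beta-like genes, the epsilon share followed the replicate arrangement of HBE1 itself. HBE1 made up 12.2% and 19.3% of beta-like FPKM in K700E_induced, 8.69% and 22.1% in K700E_uninduced, 25.7% and 6.99% in WT_induced, and 29.6% and 5.26% in WT_uninduced. The gamma genes accounted for nearly all of the rest, 70.1% to 94.5% over the 8 libraries. On the alpha-like side HBZ kept a steadier share, 28.4% and 27.2% in K700E_induced, 29.1% and 31.2% in K700E_uninduced, 34.3% and 27.1% in WT_induced, and 37.1% and 27.6% in WT_uninduced. The fetal genes as a share of all 9 averaged 40.9% ± 5.76 in K700E_induced and 48.6% ± 5.12 in K700E_uninduced, and 41.7% ± 20.8 in WT_induced and 41.5% ± 23.4 in WT_uninduced.

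**Figure D4:**
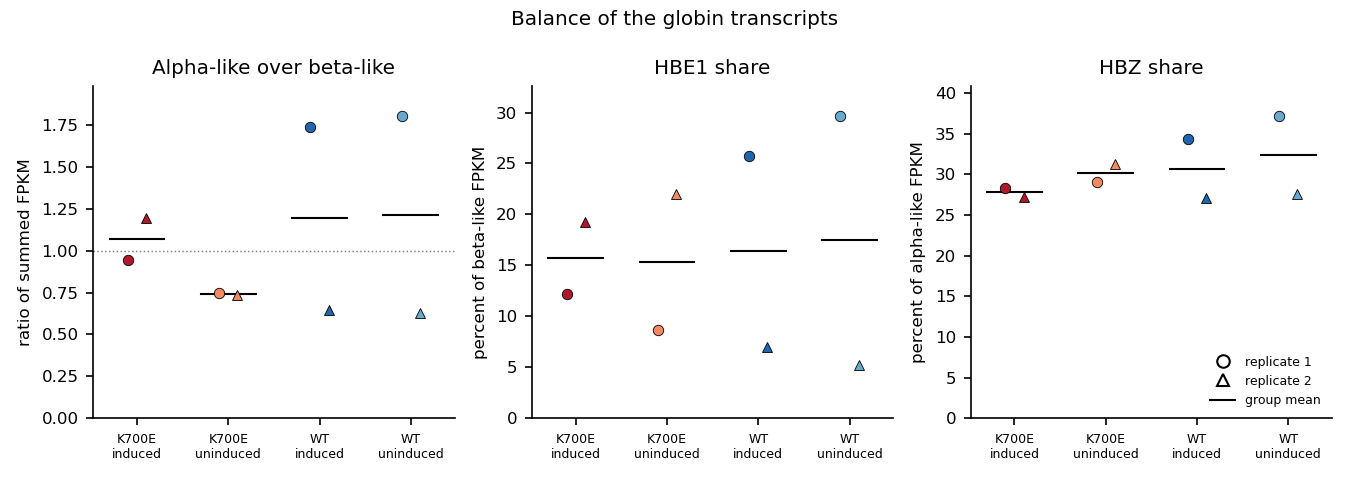
Ratio of summed alpha-like to summed beta-like FPKM (left), HBE1 as a percent of beta-like FPKM (middle) and HBZ as a percent of alpha-like FPKM (right) in the 4 groups; circles are replicate 1, triangles replicate 2, bars the mean of 2 libraries, and the dotted line marks a ratio of 1. The WT libraries part by replicate number in all 3 panels, and the K700E_uninduced ratios, 0.749 and 0.733, nearly coincide.

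HBE1 was the only member with assembled spliced forms besides its reference transcript, in 2 of 8 libraries. In K700E_induced replicate 1 an assembled transcript of 7 exons and 1084 nt ran from chr11:5289663-5526882 on the minus strand. It shared both HBE1 introns and 3 introns of OR51B5, an olfactory receptor gene upstream of the globin cluster, and began in the OR51B5 exon at chr11:5526799-5526882, 235.5 kb upstream of the HBE1 start. In WT_induced replicate 1 a transcript of 8 exons and 1210 nt began in the same exon, shared the same numbers of introns, and held 1 more exon at chr11:5303139-5303181. In both, the upstream part was joined to the first HBE1 exon 13 nt upstream of the reference start. The joined form was at 185 FPKM beside 453 for the reference form in K700E_induced replicate 1, 29.0% of the HBE1 sum. In WT_induced replicate 1 it was at 87.8 FPKM beside 840, or 9.46%.

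OR51B5 itself was listed at 0 in those 2 libraries and in WT_uninduced replicate 1. In the other 5 it was at 77.9 to 163 FPKM. The upstream exons were thus listed within a joined transcript in 2 libraries and under OR51B5 in 5 others. Whether the joined form was present in the other 6 libraries was not tested. The locus control region that drives the beta-like genes lies upstream of HBE1, inside the stretch that the joined forms span.

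**Figure D5:**
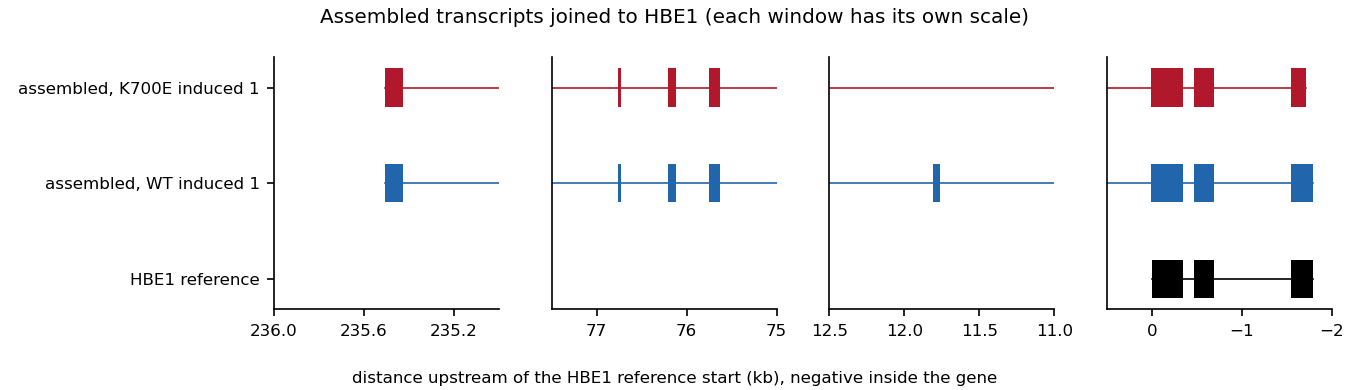
Exons (boxes) and introns (lines) of the 2 assembled transcripts joined to HBE1 and of the HBE1 reference transcript, against distance upstream of the HBE1 reference start in kb (x axis, 4 windows, each with its own scale, transcription running left to right). Both joined forms begin 235.5 kb upstream, and only the WT_induced replicate 1 form has an exon near 12 kb.

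Transcription factors known to act on the globin genes were expressed without a change past the threshold. GATA1, the master erythroid factor, was at 303 and 295 FPKM in K700E_induced, 231 and 288 in K700E_uninduced, 249.6 and 212 in WT_induced, and 298 and 260.1 in WT_uninduced. KLF1, which activates globin promoters, was at 74.6 and 121 FPKM in K700E_induced, 102 and 78.0 in K700E_uninduced, 90.5 and 88.6 in WT_induced, and 43.1 and 168 in WT_uninduced. NFE2 (67.0 to 167 FPKM), LYL1 (69.1 to 144), LDB1 (73.0 to 112) and GFI1B (46.2 to 143) completed the 6 with the highest means. Of 16 activators tested, 0 passed the adjusted threshold in any of the 6 comparisons. On K700E induction 7 lay above 0 and 9 below (median -0.06), and between the lines over both treatments 8 and 8 (median 0.01). GFI1B was the only activator with the turn of line order seen in HBZ, which 6.96% of all genes had. LMO2, a partner of GATA1, was the only one higher in the K700E line in all 4 same-number pairs (6.52% of all genes). GFI1B and LMO2 were singled out after their values were seen. The turn of HBZ was also found in 4 of 21 fetal repressors and switching factors tested, NR2C2, CHD4, DNMT1 and NFIX.

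No repressor of the fetal genes or factor of the fetal to adult switch passed the threshold either. BCL11A, the main silencer of the gamma genes, was listed at 0 in 5 libraries and at no more than 0.0301 FPKM in the others, which left it untested. CHD4, of the NuRD repressor complex, ranged from 84.7 to 110.4 FPKM, HDAC1 from 66.9 to 125, IGF2BP1 from 60.5 to 131, MYB from 46.4 to 144 and HIC2, a repressor of BCL11A, from 55.6 to 83.1. KDM1A, a histone demethylase, reached 80.5 and 77.4 FPKM in K700E_induced and 45.5 and 45.4 in K700E_uninduced, with 49.0 and 70.1 in WT_induced and 63.8 and 66.1 in WT_uninduced. Its log2 fold change on K700E induction was 0.79 (SE 0.30, unadjusted p = 0.0304, limma adjusted p = 0.974). NR2C1, a nuclear receptor gene, lay the other way, at 3.07 and 3.06 FPKM in K700E_induced, 12.0 and 14.96 in K700E_uninduced, 17.8 and 8.17 in WT_induced, and 5.30 and 1.71 in WT_uninduced. Its log2 fold change on K700E induction was -1.96 (SE 0.74, unadjusted p = 0.0298, limma adjusted p = 0.974). These were the 2 of 21 with an unadjusted p under 0.05 there, against 4.65% of all genes. Of 21 tested, 0 passed the adjusted threshold in any of the 6 comparisons, with 13 above 0 and 8 below on K700E induction (median 0.06).

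Erythroid markers other than globins differed in level between the libraries. Their sum over 10 genes was 765 and 810.5 FPKM in K700E_induced, 634 and 737 in K700E_uninduced, 602.5 and 584 in WT_induced, and 582 and 454 in WT_uninduced. The K700E sums were thus above all WT sums. Of all single genes, 1.79% were higher in the K700E line without overlap, in scaled values. GYPC, a membrane sialoglycoprotein gene, was at 285 and 178 FPKM in K700E_induced, 233 and 189 in K700E_uninduced, 145 and 152 in WT_induced, and 119.6 and 144 in WT_uninduced. RHAG ranged from 89.8 to 205 FPKM, GYPB from 0 to 151, TFRC from 43.5 to 98.2 and KEL from 16.4 to 78.9. Over both treatments 8 of the 10 lay above 0 (median 0.29), against 51.4% of all genes (median 0.02). The 2 below 0 were EPOR (log2 fold change -0.74, SE 0.59) and KEL (-0.40, SE 0.34). None of the 10 passed the adjusted threshold (0.0436% of all genes). GYPC, ALAS2 and SLC4A1, 3 of the 10 and all higher in the K700E line, had an unadjusted p under 0.05, against 5.81% of all genes. Their part in the globin values was not tested. Among the markers named here, GYPB shared the turn of line order seen in HBZ, and GYPC, ALAS2 and SLC4A1 shared the steady order of the gamma genes.

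Markers of other cell types also differed between the libraries. The stromal and epithelial list, 7 genes led by KRT8 and KRT18, summed to 732 and 655 FPKM in K700E_induced, 1445 and 1143 in K700E_uninduced, 720.2 and 532 in WT_induced, and 843 and 554 in WT_uninduced. It was highest in K700E_uninduced, as the gamma genes were, and its part in their values was not tested. KRT8 alone gave 319 and 305 FPKM in K700E_induced and 629 and 539 in K700E_uninduced. CDH1 and COL1A2, also on the list, were listed at 0 in 5 and 7 libraries and reached at most 0.0173 and 3.47 FPKM. All 5 tested genes of this list lay below 0 on K700E induction (50.5% of all genes did). Of these, 3 had an unadjusted p under 0.05 (4.65% of all genes), and 0 passed the adjusted threshold (0.0174%). Myeloid markers, 8 genes of which 2, MPO and ELANE, were listed at 0 in all libraries, summed to 57.0 and 39.5 FPKM in K700E_induced, 92.9 and 62.6 in K700E_uninduced, 64.3 and 127 in WT_induced, and 105 and 143 in WT_uninduced. They were lowest in K700E_induced. All 4 tested lay below 0 on K700E induction, between the induced groups and between the lines over both treatments. Of all genes, 50.5% lay below 0 in the first of these comparisons, and 50.5% and 51.4% lay above 0 in the other 2. CD68 and LYZ had an unadjusted p under 0.05 each time, against 4.65%, 5.25% and 5.81% of all genes. None passed the adjusted threshold (0.0174%, 0.0349% and 0.0436% of all genes), and the part of these markers in the globin values was not tested. Megakaryocytic markers summed to 9.91 to 41.9 over 7 (3 listed at 0 in all) and lymphoid markers to 8.40 to 63.4 over 6 (2 listed at 0 in all). All libraries came from K562 cells, so the names of these lists do not show that other cell types were present. In bulk RNA, fewer cells of a kind and less RNA per cell cannot be told apart.

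Of 3564 genes detected in every library and averaging at least 20 FPKM, those most like the gamma sum by Pearson's r of log2(FPKM + 0.5) over the 8 libraries were IARS (r = 0.98), SFT2D1 (0.92), DHCR7 (0.92), MTCH2 (0.91) and NRDC (0.91). IARS, an isoleucyl-tRNA synthetase gene, was at 104 and 116 FPKM in K700E_induced, 122 and 122 in K700E_uninduced, 81.3 and 103 in WT_induced, and 77.3 and 111 in WT_uninduced. Those most like HBE1 were FAM60A (r = 0.97), SEPTIN5 (0.92), SGMS1 (0.91), OGDH (0.89) and XK (0.89). XK, a membrane protein gene of the Kell blood group complex, was at 13.5 and 18.1 FPKM in K700E_induced, 14.6 and 73.8 in K700E_uninduced, 19.0 and 10.8 in WT_induced, and 22.5 and 9.27 in WT_uninduced. These are the highest of many correlations over 8 libraries that share lines and lanes, and they are given as descriptions.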

How the data were processed

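The submitters' processing notes name CASAVA, TopHat, Cufflinks and hg19 for the 8 K562 libraries, with no version given. The deposited lists hold Cufflinks FPKM and coverage per transcript; their score column, also deposited, was not used. FPKM was summed by gene over reference transcripts and assembled transcripts of 300 nt or more. Assembled spliced transcripts went to the gene sharing most of their introns, and ties were left out. Unspliced ones were added where they nearly matched a single-exon reference transcript in extent. An assembled transcript sharing a globin intron went to the globin, whatever its length. Libraries were scaled by median ratios over 7553 genes (factors 0.98 to 1.03). For the 11465 genes averaging at least 1, log2(FPKM + 0.5) was fitted with limma 3.58.1 in R 4.3.3 (trend, 4 group means, 8 libraries), in 6 comparisons across all genes, with Benjamini-Hochberg adjustment and calls at adjusted p under 0.05. Fold changes refer to log2(FPKM + 0.5), which shrinks those of low genes. The fit was tested on simulated data. The deposited files give no counts, so count models were not used.

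Members and gene lists were chosen with earlier results of these data known. All members were named; other lists gave the 6 genes with the highest mean and any genes counted in small numbers, and the 5 genes most like the gamma sum and HBE1 were named. Sequences are GENCODE 29 transcripts (GRCh38), coordinates those of the files (hg19). The tests did not use replicate numbers as pairs, and ratios between same-number libraries are descriptions. Alternatives are given in the closing section. Tables used Python 3.11.15, pandas 2.3.3 and Biopython 1.88, figures matplotlib 3.10.9. Single values of some erythroid markers are not reported here.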

Additional observations from a re-analysis of the deposited data

Results flagged for a closer look

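HBD values lay in opposite directions on induction in the 2 lines, with no overlap in either. It was at 15.7 and 3.91 FPKM in K700E_induced and listed at 0 in both K700E_uninduced libraries, and at 6.48 and 0 in WT_induced against 8.44 and 14.7 in WT_uninduced. The difference between the 2 changes in mean level was 18.2 FPKM, K700E minus WT. Without overlap, 16% of all genes were higher on K700E induction and 14% were lower on WT induction. In limma's interaction test HBD had an unadjusted p of 0.00737 and an adjusted p of 0.999 over all genes. An unadjusted p under 0.05 was found there for 4.3% of all genes. With 3 of 8 values listed at 0, a failed estimate cannot be told apart from absence.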

How the results depend on the processing

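No member passed the adjusted limma threshold in any comparison under any of the settings run (pseudocount, filter on low values, scaling, reference transcripts alone, compared groups alone, blocks, each library left out). Across 385 fold changes under settings that kept all libraries, 4 changed sign, all within 0.04 of 0 on WT induction. HBG1 was 0.0013 without scaling and 0.033 with reference transcripts alone, HBG2 was 0.0010 with reference transcripts alone, and HBE1 was -0.018 when assembled transcripts went to the gene sharing most of their introns, a setting chosen after seeing the data. HBE1 on K700E induction moved to -0.55 with reference transcripts alone.

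Leaving out 1 library at a time changed the sign of 47 of 336 fold changes. On K700E induction the values then ran from -0.21 to 0.61 for HBA1, -0.45 to 0.35 for HBA2, -0.43 to 0.33 for HBZ, -0.78 to 2.06 for HBQ1 and -1.31 to 0.70 for HBE1. HBG1 (-0.66 to -0.11) and HBG2 (-0.70 to -0.32) stayed below 0. On WT induction they ran from -0.34 to 0.41 for HBA1, -0.55 to 0.37 for HBA2, -0.83 to 0.59 for HBZ, -0.17 to 0.49 for HBQ1, -0.93 to 1.04 for HBE1, -0.52 to 0.51 for HBG1 and -0.49 to 0.42 for HBG2. Between the induced lines they ran from -0.011 to 0.92 for HBA2, -0.25 to 1.06 for HBZ and -0.59 to 2.25 for HBQ1, and between the uninduced lines from -0.030 to 0.86 for HBA2 and -0.38 to 1.04 for HBZ. Over both treatments HBQ1 ran from -0.12 to 1.30, HBZ from 0.012 to 0.72, HBA2 from 0.20 to 0.67, HBA1 from 0.39 to 0.80, HBE1 from 0.41 to 1.41, HBG1 from 0.46 to 0.97 and HBG2 from 0.58 to 1.04. Members that kept their sign also moved by over 1.5 times between the induced lines (HBE1 0.017 to 1.44, HBA1 0.26 to 1.09, HBG1 0.15 to 0.90, HBG2 0.16 to 0.98) and between the uninduced lines (HBE1 0.083 to 2.09, HBA1 0.14 to 0.87, HBG1 0.39 to 1.42, HBG2 0.594 to 1.503). For the interaction they ran from -0.24 to 0.58 for HBA1, -0.42 to 0.50 for HBA2, -0.64 to 0.78 for HBZ, -0.94 to 1.90 for HBQ1, -1.36 to 0.64 for HBE1 and -0.90 to 0.13 for HBG1. The alpha-like to beta-like ratio ran with the library kept, from 0.947 to 1.19 in K700E_induced, 0.733 to 0.749 in K700E_uninduced, 0.648 to 1.74 in WT_induced and 0.627 to 1.80 in WT_uninduced. The fetal share ran from 36.8% to 44.9%, 45.0% to 52.2%, 27.0% to 56.4% and 25.0% to 58.0% in the same 4 groups.

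A replicate block did not change a call (HBG2 over both treatments 0.81, adjusted p 0.651), nor did a replicate block in each line, chosen after seeing the data (HBG2 on K700E induction -0.51, adjusted p 0.949). Deviations of same-numbered libraries from their group means correlated by -0.04 to 0.10 over 8744 genes, little sign of pairing over all genes. Noise in single genes also lowers such values, so they cannot show whether same-numbered libraries shared a culture. HBD was left out of these fold changes because a group is listed at 0.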
